A study of Mus musculus with 6 samples.

Results

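Proteases that cut the extracellular matrix and shed cell-surface proteins, together with their inhibitors, were examined in muscle and epithelium sorted from the mouse trachea at embryonic day 13.5. The genes were taken by symbol from the deposited count table: matrix metalloproteases (Mmp), ADAM proteases (Adam), secreted ADAMTS proteases (Adamts), ADAMTS-like proteins (Adamtsl) and tissue inhibitors of metalloproteases (Timp). This gave 84 of 23478 genes, made up of 23 Mmp, 33 Adam, 19 Adamts, 5 Adamtsl and 4 Timp genes. All 6 libraries came from embryos labelled as controls that carried floxed Bmp4 (Bmp4 f/f) and the gamma SMA eGFP reporter, in which green fluorescent protein is driven by the gamma smooth muscle actin gene, and the labels name no Cre. Muscle cells were collected by GFP (3 libraries) and epithelial cells by an antibody to Epcam (3 libraries). The labels do not say whether replicates were separate litters or pools of embryos, so p-values measure the spread between these libraries.

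Matrix metalloproteases and ADAMTS proteases are zinc enzymes that are made as inactive precursors and cut collagens, proteoglycans and other matrix proteins. ADAMs sit in the cell membrane, where those with an active protease domain release growth factors and receptor ectodomains. TIMPs are small secreted proteins that block the active site of these enzymes. In the developing airway, matrix of the mesenchyme is laid down and remodelled while smooth muscle forms.

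Library totals ran from 11847432 to 54848820 counts, and 1 count was worth between 0.0186 and 0.0668 CPM (each count divided by a library size adjusted with edgeR's TMM factors, per 1e+06). The sorted populations carried their own markers: all 10 smooth muscle markers were higher in muscle and all 11 epithelial markers in epithelium. Each list holds the gene behind its own sort, Actg2 (gamma smooth muscle actin) and Epcam, which are no independent check of it. Summed smooth muscle markers were at 4370 CPM in muscle replicate 2 and at 17750 and 19300 CPM in the other muscle libraries. Muscle replicate 2 and epithelium replicates 2 and 3 stood apart by counts in genes of other tissues. In these 3 libraries, olfactory and vomeronasal receptor genes averaged 0.531, 0.979 and 0.410 CPM per gene, against 0.030, 0.020 and 0.0046 CPM in muscle replicates 1 and 3 and epithelium replicate 1. Among markers of cells that either sort could hold, summed skeletal muscle markers were at 1095, 225 and 985 CPM in muscle replicates 1 to 3 and at 3.01 to 45.4 CPM in epithelium. Most of the muscle sums came from Actc1, at 722, 204 and 948 CPM. Myog, Myod1 and Myh3 were at 245, 62.1 and 52.2 CPM in muscle replicate 1 and at most 17.3 CPM in the other muscle libraries. The remaining genes of that list reached at most 6.39 CPM in muscle. Summed cartilage markers were at 747 to 1246 CPM in muscle and 236 to 524 CPM in epithelium. Of 7 cartilage markers, 2 (28.6%) were higher in muscle, beside 6.58% of all tested genes, and 5 did not pass. The 2 were Sox9 (edgeR adjusted p = 0.026) and Col9a1 (edgeR adjusted p = 0.011). Summed endothelial markers were at 46.8 to 78.0 CPM in muscle and 13.5 to 67.5 CPM in epithelium, and immune markers at 3.50 to 53.7 and 4.41 to 46.4 CPM. Summed neural and glial markers were at 35.4 to 69.9 CPM in muscle and 34.6 to 82.9 CPM in epithelium, mesothelial markers at 2.38 to 21.5 and 2.70 to 20.6 CPM, and erythroid markers at 8.36 to 36.5 and 6.26 to 22.7 CPM. Their part in the results below was not tested. In bulk RNA, fewer expressing cells and less RNA per cell cannot be told apart.

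Where genes of the group differed, the higher level was in muscle. Of the 84 genes, 77 passed the filter on low counts and were tested. 18 were higher in muscle at an adjusted p under 0.05 (edgeR's quasi-likelihood test, two-sided, adjusted over all 19375 tested genes) and none was higher in epithelium. The 18 make up 23.4% of the tested genes of the group, whereas among all tested genes muscle was higher for 6.58% and epithelium for 4.11%. At an average log2 CPM of 2 or more, the 18 were 38.3% of 47 genes of the group, against 10% of all 12738 genes at that level. The other 30 tested genes of the group lay under it, and none was called. The median log2 fold change of muscle over epithelium was 0.37 over the 77 genes and -0.10 over all tested genes. At an unadjusted p under 0.05 in edgeR, 28 genes of the group pointed to muscle and 2 to epithelium, beside 13.5% and 8.18% of all tested genes. DESeq2 called 23 genes of the group toward muscle and limma-voom 24, where they called 10.1% and 8.22% of all tested genes that way. Each called 1 gene of the group, Adam28, toward epithelium, as they did 8.18% and 4.62% of all tested genes.

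By family, the calls covered ADAMTS proteases in 11 of 19 tested genes (57.9%), TIMPs in 2 of 4 (50%) and ADAMTS-like genes in 1 of 5 (20%). They covered MMPs in 2 of 20 (10%) and ADAMs in 2 of 29 (6.9%), close to the 6.58% of all tested genes that were higher in muscle. These proportions were not compared by a test. The muscle and epithelial libraries did not overlap in 29 of the 77 genes, with muscle above in 27 and epithelium above in 2, while muscle lay above in 16.4% and epithelium in 10.5% of all tested genes. The count of 18 was 9 without muscle replicate 3 and 9 without epithelium replicate 3. It was 11 when libraries were scaled by their totals alone, where Adam9, Adamts3, Adamts4, Adamts5, Adamts9, Adamts12, Adamts15, Mmp16 and Timp2 lost their call and Timp3 and Adamts10 gained one. This scaling moved the median log2 fold change of all genes from -0.10 to -0.33 and the share of all calls that were higher in muscle from 61.5% to 42.0%. In the 3 libraries with few receptor counts (muscle replicates 1 and 3 and epithelium replicate 1), 23 of the 59 genes of the group that were tested passed toward muscle, 14 of them among the 18, as did 8.56% of all 16641 tested genes. Toward epithelium 1 gene of the group passed there, Adam28, and 7.02% of all tested genes. That fit holds 1 epithelial library, which is assumed to vary like the muscle libraries, and was chosen after seeing the data.

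**Figure D1:**
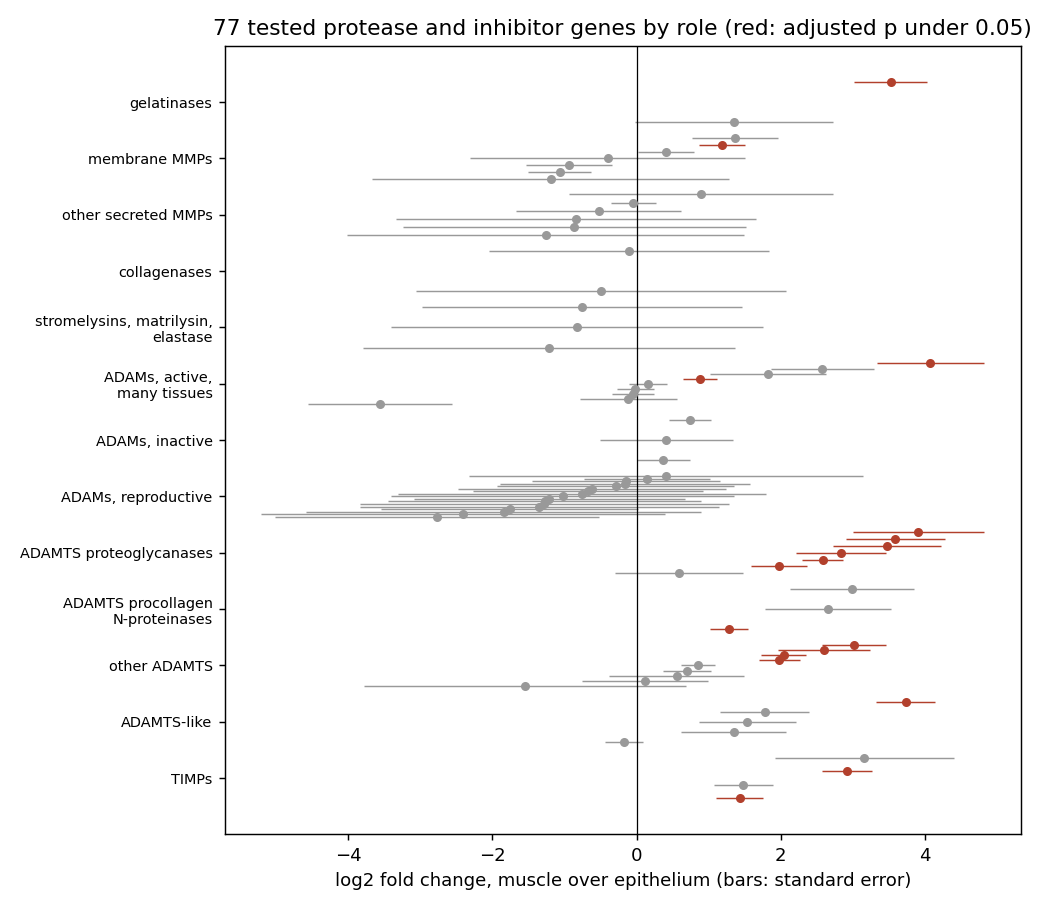
Log2 fold change of muscle over epithelium (x axis, bars are standard errors) for the 77 tested genes, grouped by role (y axis); each point is 1 gene and red marks an adjusted p under 0.05. All 18 red points lie right of 0, 11 of them in the 3 ADAMTS protease rows.

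In 13 of the 18 genes, the lowest muscle library was at least 2 times the highest epithelial library. All 18 genes were above 3 counts in all 6 libraries. 7 of the 18 (Adamts1, Adamts7, Adamts17, Adamts18, Adamtsl2, Mmp2 and Timp1) passed the threshold in all 18 alternative fits, which included leaving out each library. Among the epithelial libraries, replicate 2 held the highest level of 11 of the 18 genes. As a share of the muscle mean, the median over the 18 genes was 12.7%, 21.1% and 12.6% in epithelium replicates 1 to 3, whereas the median over smooth muscle markers was 0.895%, 1.79% and 0.70%. The fibrillar collagen gene Col1a1 stood at 24.9% of its muscle mean in epithelium replicate 2 and at 3.65% and 2.40% in replicates 1 and 3.

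**Figure D2:**
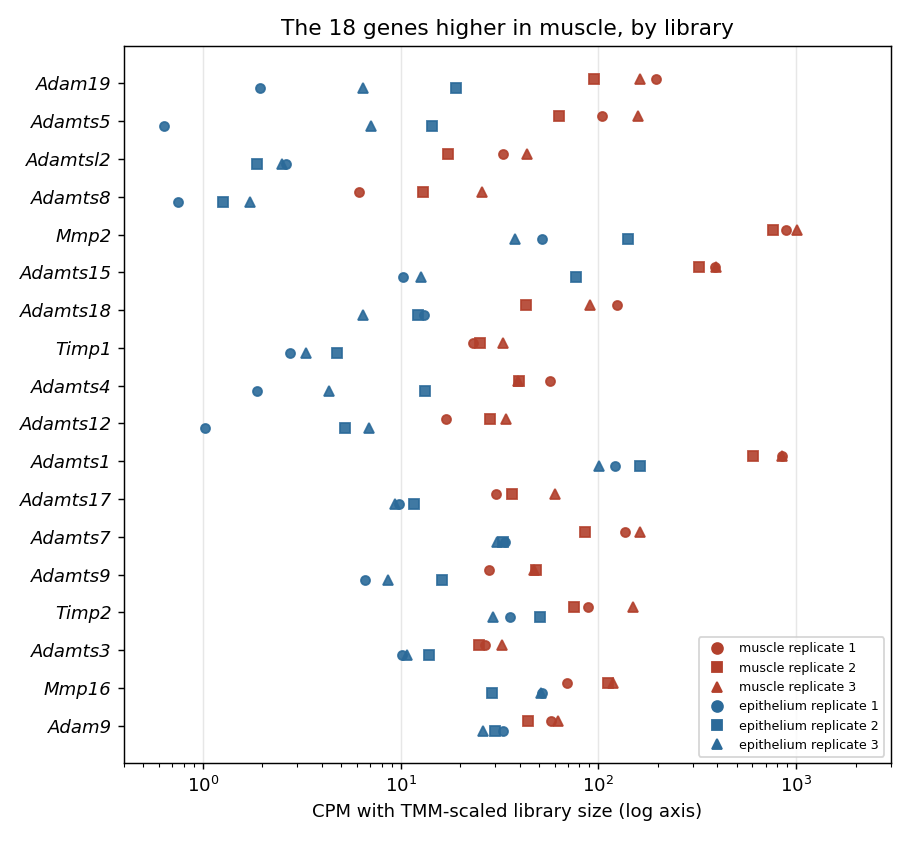
Level of the 18 genes higher in muscle in each library, as CPM on a log axis (x axis), with genes on the y axis ordered by fold change; red is muscle, blue is epithelium and the symbol gives the replicate. No blue point reaches the lowest red point of its gene, and epithelium replicate 2 (blue squares) is the highest blue point in 11 genes.

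Promoter sequence is shown for 3 of the 7 genes whose calls held in every fit and, for contrast, for 2 genes of the chromosome 9 MMP cluster, whose counts followed the receptor genes (below). RefSeq promoters (GRCm38.p6, the assembly that mm10 is built on) were matched by symbol for 53 of the 84 genes, and the 250 bases before each start are used. Capitals mark matches on either strand to the TATA box (TATAAA), the AP-1 site (TGANTCA), the GC box (GGGCGG) or the CArG box of serum response factor.
Adamts1 promoter: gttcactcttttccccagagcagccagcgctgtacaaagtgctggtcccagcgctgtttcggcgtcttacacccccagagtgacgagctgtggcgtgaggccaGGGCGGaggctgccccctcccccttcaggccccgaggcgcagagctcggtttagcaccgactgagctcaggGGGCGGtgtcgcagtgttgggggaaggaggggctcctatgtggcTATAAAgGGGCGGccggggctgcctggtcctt
Adamtsl2 promoter: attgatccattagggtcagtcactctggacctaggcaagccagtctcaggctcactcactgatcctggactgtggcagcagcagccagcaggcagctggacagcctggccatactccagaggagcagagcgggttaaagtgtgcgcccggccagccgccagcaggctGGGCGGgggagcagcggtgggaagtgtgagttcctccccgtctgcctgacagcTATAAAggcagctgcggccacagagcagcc
Timp1 promoter: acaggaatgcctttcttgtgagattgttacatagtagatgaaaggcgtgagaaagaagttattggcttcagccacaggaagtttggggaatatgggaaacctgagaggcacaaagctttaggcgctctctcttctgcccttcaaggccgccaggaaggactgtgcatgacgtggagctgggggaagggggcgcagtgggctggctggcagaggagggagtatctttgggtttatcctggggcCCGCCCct
Mmp3 promoter: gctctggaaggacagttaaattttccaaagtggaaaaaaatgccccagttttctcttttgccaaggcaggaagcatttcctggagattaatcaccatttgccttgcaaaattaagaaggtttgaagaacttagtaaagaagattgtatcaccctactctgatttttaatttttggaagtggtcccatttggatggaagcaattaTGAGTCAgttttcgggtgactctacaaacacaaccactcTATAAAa
Mmp13 promoter: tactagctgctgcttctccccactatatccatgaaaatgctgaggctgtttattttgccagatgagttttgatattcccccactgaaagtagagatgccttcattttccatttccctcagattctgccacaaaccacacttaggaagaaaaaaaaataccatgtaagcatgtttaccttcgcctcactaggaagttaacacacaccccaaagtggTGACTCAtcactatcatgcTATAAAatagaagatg
They lie at chr16:85803114-85803363 (minus strand), chr2:27079129-27079378, chrX:20869916-20870165, chr9:7445572-7445821 and chr9:7272264-7272513 (all plus strand). The Adamts1 window holds a TATA box and 3 GC boxes, the Adamtsl2 window a TATA box and 1 GC box, and the Timp1 window 1 GC box. Mmp3 and Mmp13 each hold an AP-1 site upstream of a TATA box. Adamts17 and Adamts18, whose calls also held in every fit, were matched and are not shown. The Adamts17 window holds none of these motifs and the Adamts18 window 1 GC box. In the 12 windows of the 10 matched genes higher in muscle, 58.3% hold a GC box, 16.7% a TATA box, 8.33% an AP-1 site and none a CArG box. The shares of all 32851 windows were 32.7%, 12.4%, 6.75% and 1.47%. The 2 windows with a TATA box are those shown for Adamts1 and Adamtsl2. 7 of the 10 cluster genes hold both a TATA box and an AP-1 site in the window, as do 1 of 43 other matched genes of the group and 1.21% of all windows. A match is a description of letters and not of binding.

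The gelatinases are Mmp2 and Mmp9, which cut denatured collagen and basement membrane collagen. Mmp2 (chr8:92827291-92853420, GRCm38) was at 884, 767 and 1012 CPM in muscle replicates 1 to 3 and at 52.1, 142 and 37.8 CPM in epithelium. The groups were far apart, with every muscle library at least 5 times the highest epithelial one. On the log2 scale the difference was 3.52 ± 0.50 (SE; edgeR adjusted p = 0.0026), or 11.5-fold. Per kilobase of exon, Mmp2 had the highest muscle level of the 84 genes, at 263 ± 36.4 CPM per kb (SD, n = 3) against 22.9 ± 16.7 in epithelium. It made up 56.2% to 61.4% of the summed per-kilobase level of all MMPs in the muscle libraries and 6.64% to 24.1% in the epithelial ones. Mmp9 was far lower, with 7.72, 0.998 and 1.82 CPM in muscle and 0.204, 2.54 and 1.39 CPM in epithelium. Its groups overlapped, and its log2 fold change was 1.36 ± 1.38 (edgeR adjusted p = 0.77).

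Membrane-bound MMPs act at the cell surface, and Mmp14 is known for activating the precursor of MMP2 there. Mmp14 had 139, 214 and 405 CPM in muscle and 215, 217 and 139 CPM in epithelium. The groups overlapped, so that the enzyme's transcript was measured in both populations without a difference beyond the spread (log2 fold change 0.41 ± 0.39, edgeR adjusted p = 0.74). Without muscle replicate 3, its library of highest level, the log2 fold change was -0.10. Mmp16, a transmembrane relative, had 69.5, 112 and 118 CPM in muscle and 51.6, 28.9 and 51.1 CPM in epithelium. It was higher in muscle by 1.19 ± 0.32 on the log2 scale (edgeR adjusted p = 0.044). That call was lost on leaving out any library except muscle replicate 1, at an adjusted p of up to 0.15 in edgeR.

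Among the other membrane MMPs, Mmp15 and Mmp17 had their higher mean in epithelium and Mmp23 in muscle, and none of the 3 passed edgeR's test. Mmp15, named after its values were seen, had 10.5, 7.34 and 24.5 CPM in muscle and 36.2, 31.1 and 21.6 CPM in epithelium (log2 fold change -1.07 ± 0.44, edgeR adjusted p = 0.19). The highest muscle library, replicate 3, lay above the lowest epithelial one, and without it the adjusted p was 0.024 at a log2 fold change of -1.72, the 1 of 18 alternative fits in which it passed. Mmp17, anchored to the membrane by a lipid, had 1.98 to 8.64 CPM in muscle and 8.83 to 15.0 CPM in epithelium without overlap (-0.94 ± 0.60, adjusted p = 0.48). Mmp23, also named after its values were seen, averaged 56.5 ± 32.1 CPM in muscle (SD, n = 3) and 21.8 ± 13.0 in epithelium (1.36 ± 0.59, edgeR adjusted p = 0.22).

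Mmp11, or stromelysin-3, is activated inside the cell by furin rather than outside it. Named after its values were seen, it was the MMP of highest per-kilobase level in epithelium, at 102 ± 35.4 CPM per kb (SD, n = 3), and had 99.4 ± 19.8 in muscle. Its share of the summed per-kilobase MMP level was 37.9% to 63.3% in epithelial libraries and 19.4% to 27.6% in muscle libraries. In CPM it had 328, 218 and 282 in muscle and 381, 184 and 288 in epithelium. The ranges overlapped almost entirely, and the log2 fold change was -0.04 ± 0.31 (edgeR adjusted p = 0.98).

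The secreted collagenases, stromelysins, matrilysin and metalloelastase lie together with Mmp20 and Mmp27 in a cluster of 10 genes (Mmp1a, Mmp1b, Mmp3, Mmp7, Mmp8, Mmp10, Mmp12, Mmp13, Mmp20 and Mmp27) at chr9:7272514-7699585 (GRCm38), a span of 427.1 kb. All were at or under 5 CPM in every library. Epithelium replicate 1, the deepest library, had no counts for any of them, which allows up to 0.0558 CPM per gene (3 counts). Muscle replicates 1 and 3 had counts for 5 and 3 of the 10 genes, and muscle replicate 2 and epithelium replicates 2 and 3 for 8, 10 and 10. The mean per gene was 0.186, 1.58 and 0.073 CPM in muscle replicates 1 to 3 and 0, 2.17 and 1.19 CPM in epithelium replicates 1 to 3. The libraries with more counts in the cluster were thus those with more counts in olfactory and vomeronasal receptor genes. 3 of the 10 genes (Mmp1a, Mmp1b and Mmp7) did not pass the filter, and none of the other 7 passed the test (edgeR adjusted p of at least 0.92), at an unadjusted p under 0.05, or in DESeq2 or limma-voom.

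**Figure D3:**
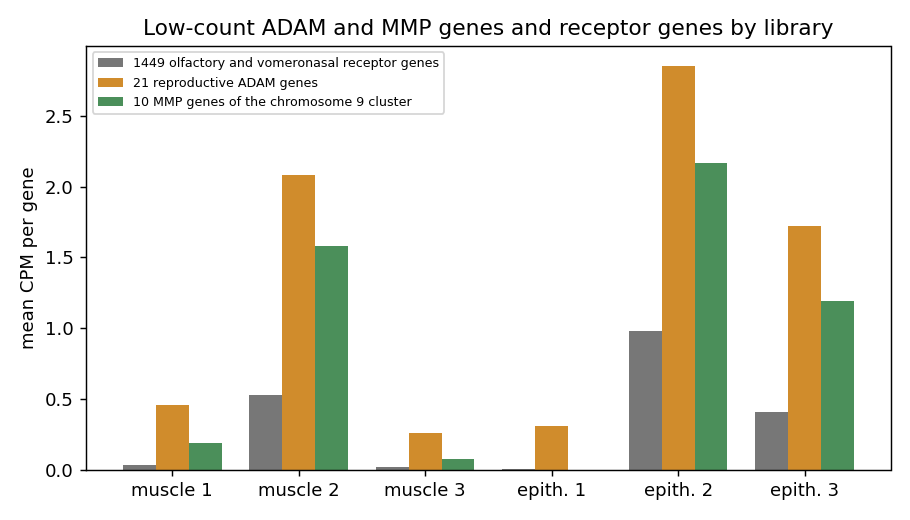
Mean CPM per gene (y axis) in each library (x axis) for receptor genes of sensory neurons, the 21 reproductive ADAM genes and the 10 genes of the chromosome 9 MMP cluster; gene lengths differ between the sets. All 3 sets are highest in epithelium replicate 2, followed by muscle replicate 2 and epithelium replicate 3.

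ADAMs with a working protease domain in many tissues form a group of 9, of which Adam19 and Adam9 were higher in muscle. Adam19, which can release neuregulins, had 195, 95.4 and 163 CPM in muscle and 1.95, 19.0 and 6.42 CPM in epithelium. No epithelial library came near the muscle range, and the log2 fold change of 4.08 ± 0.75 (edgeR adjusted p = 0.0090) was the largest positive one of the whole gene group in this fit. The call was lost without epithelium replicate 3 (adjusted p = 0.061). Adam9 had 57.3, 43.9 and 62.3 CPM in muscle and 33.0, 30.0 and 26.1 CPM in epithelium, a log2 fold change of 0.88 ± 0.24 (edgeR adjusted p = 0.048). It kept its call without muscle replicate 2 and lost it in the other 5 fits that left out a library (adjusted p of up to 0.28).

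Adam10 and Adam17 are the main sheddases of Notch receptors, cadherins and growth factors of the epidermal growth factor family. Adam10 had 157, 91.2 and 133 CPM in muscle and 119, 131 and 135 CPM in epithelium. Adam17 had 124, 63.8 and 85.4 CPM in muscle and 85.3, 85.9 and 112 CPM in epithelium. Both genes overlapped between the groups, with log2 fold changes of -0.02 ± 0.26 for Adam10 and -0.05 ± 0.29 for Adam17 (adjusted p = 0.99 and 0.97, edgeR), and the sign of each changed with the libraries used.

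Adam12 and Adam33, relatives of Adam19, had higher levels in all muscle libraries than in any epithelial library without passing the test. Adam12 had 28.4, 33.7 and 30.5 CPM in muscle and 0.929, 19.4 and 6.20 CPM in epithelium (1.82 ± 0.81, edgeR adjusted p = 0.24). Its epithelial level was thus between 3.01% and 62.8% of the muscle mean, depending on the library. Adam33, a gene linked to human asthma, had 7.07, 7.69 and 9.33 CPM in muscle and 0.948, 1.74 and 1.35 CPM in epithelium (2.58 ± 0.71, edgeR adjusted p = 0.052).

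Adam28 was the gene of the group with the lowest log2 fold change, -3.56 ± 1.00 (edgeR adjusted p = 0.057). It had 21.7, 39.6 and 43.3 CPM in epithelium and 0.798, 7.89 and 0.354 CPM in muscle. The groups did not overlap, and muscle replicate 2 was the highest of the muscle libraries. Without muscle replicate 2 the adjusted p was 0.00016 at a log2 fold change of -5.94. In that library Adam28 was at 22.6% of its epithelial mean, while epithelial markers were at a median of 0.86% and receptor genes averaged 0.531 CPM. Adam28 has 9.18 kb of exon and was at 0.859 CPM per kb there, and the receptor mean is per gene without adjustment for length. Adam28 passed in 6 of 18 alternative fits, among them DESeq2 (adjusted p = 0.0033) and limma-voom (0.011). It did not pass in the other 12, which included the fits that left out any library other than muscle replicate 2 (edgeR adjusted p of up to 0.22).

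Leaving aside the ADAMs of the testis, sperm and epididymis (below), 3 ADAMs lack a working protease. These genes, Adam11, Adam22 and Adam23, serve as cell-surface receptors, best known from neurons. None passed edgeR's test, DESeq2's or limma-voom's, and 1 (Adam22) had an unadjusted p under 0.05 in edgeR. Adam22 had 67.2, 42.2 and 40.1 CPM in muscle and 30.9, 23.1 and 35.3 CPM in epithelium, without overlap (0.74 ± 0.29, edgeR adjusted p = 0.16).

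ADAMs of the testis, sperm and epididymis, 21 genes, reached at most 11.2 CPM in any library (Adam7 in epithelium replicate 2). 17 were tested, none passed edgeR's test, DESeq2's or limma-voom's, 0 had an unadjusted p under 0.05 in edgeR, and the median log2 fold change was -1.02. Their mean per gene was 0.454, 2.08 and 0.260 CPM in muscle replicates 1 to 3 and 0.307, 2.85 and 1.72 CPM in epithelium replicates 1 to 3, the same order of libraries as for receptor genes at the upper 3 places. Epithelium replicate 1 had counts for 8 of the 21 genes and epithelium replicate 3 for all 21. Adam1a did not follow that order, with 3.61, 3.07 and 2.85 CPM in epithelium replicates 1 to 3. Of its exonic bases, 63.7% are shared with other annotated genes, so its counts are uncertain.

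The ADAMTS proteases that cut the large proteoglycans versican and aggrecan were higher in muscle in 6 of 7 cases. Adamts1 was the most abundant of all ADAMTS genes per kilobase, with 144 ± 26.6 CPM per kb (SD, n = 3) in muscle and 24.1 ± 5.94 in epithelium. It had 847, 602 and 846 CPM in muscle and 121, 162 and 100.1 CPM in epithelium. The difference was 5.99-fold, a log2 fold change of 2.58 ± 0.29 (edgeR adjusted p = 0.00093). It accounted for 48.6% to 53.6% of the summed per-kilobase ADAMTS level in muscle libraries and 39.7% to 44.0% in epithelial ones.

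Adamts15 had 388, 324 and 393 CPM in muscle and 10.2, 77.1 and 12.6 CPM in epithelium. Epithelium replicate 2 was thus at 20.9% of the muscle mean and the other epithelial libraries at 2.78% and 3.43%. The log2 fold change was 3.48 ± 0.74 (edgeR adjusted p = 0.019). The call was lost without muscle replicate 1, 2 or 3 or epithelium replicate 3 (adjusted p of up to 0.074), and without epithelium replicate 2 the log2 fold change was 4.97. Adamts5, an aggrecanase, had 104, 63.1 and 158 CPM in muscle and 0.632, 14.4 and 7.06 CPM in epithelium (3.91 ± 0.90, edgeR adjusted p = 0.025). It lost its call without the same 4 libraries (up to 0.14). Epithelium replicate 2 was again the highest epithelial library. Adamts4, the other main aggrecanase, had 57.2, 39.4 and 39.2 CPM in muscle and 1.88, 13.2 and 4.32 CPM in epithelium (2.83 ± 0.63, edgeR adjusted p = 0.020). Its call was lost without muscle replicate 1, muscle replicate 3 or epithelium replicate 3 (up to 0.10).

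Lower in abundance, Adamts8 had 6.12, 13.0 and 25.9 CPM in muscle and 0.743, 1.27 and 1.73 CPM in epithelium (3.59 ± 0.68, edgeR adjusted p = 0.010). The muscle libraries differed among themselves by more than 4 times, and the call was lost without muscle replicate 3 (adjusted p = 0.15). Adamts9, which also acts in the secretory pathway and in cilium formation, had 27.9, 48.1 and 47.3 CPM in muscle and 6.64, 16.2 and 8.68 CPM in epithelium (1.98 ± 0.39, edgeR adjusted p = 0.012). It lost the call without epithelium replicate 3 (adjusted p = 0.068). Adamts20, named after its values were seen, was the exception, averaging 10.1 ± 4.38 CPM in muscle (SD, n = 3) and 6.71 ± 5.41 in epithelium (0.59 ± 0.89, edgeR adjusted p = 0.89). 4 of the 6 genes are chromosomal neighbours: Adamts1 (chr16:85793827-85803113) is next to Adamts5 (chr16:85856173-85901828), and Adamts15 (chr9:30899155-30922452) is next to Adamts8 (chr9:30942562-30963838), with no other protein-coding gene between them in GENCODE M21.

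Adamts2, Adamts3 and Adamts14 remove the amino-terminal propeptide of fibrillar procollagens. All 3 had muscle above epithelium in every library, and Adamts3 passed the test. Adamts3 had 26.8, 25.0 and 32.7 CPM in muscle and 10.1, 13.9 and 10.7 CPM in epithelium (1.28 ± 0.26, edgeR adjusted p = 0.014). Its call was lost without muscle replicate 3, epithelium replicate 1 or epithelium replicate 3 (adjusted p of up to 0.089). Adamts14 had 13.3, 26 and 17.7 CPM in muscle and 0.260, 4.95 and 2.10 CPM in epithelium (2.99 ± 0.86, edgeR adjusted p = 0.060). Adamts2 had 13.1, 63.9 and 41.3 CPM in muscle and 0.688, 10.2 and 8.15 CPM in epithelium (2.66 ± 0.88, edgeR adjusted p = 0.10). For Adamts2 the lowest muscle library, replicate 1, was less than 2 times the highest epithelial library.

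Of the 9 other ADAMTS proteases, 4 were higher in muscle. Adamts7, which can cut cartilage oligomeric matrix protein, had 136, 85.9 and 163 CPM in muscle and an even 33.6, 32.9 and 30.9 CPM in epithelium (1.98 ± 0.28, edgeR adjusted p = 0.0026). Its relative Adamts12 had 16.9, 28.3 and 33.9 CPM in muscle and 1.02, 5.21 and 6.91 CPM in epithelium (2.60 ± 0.64, edgeR adjusted p = 0.031), and it lost the call without muscle replicate 3 or epithelium replicate 2 (adjusted p of up to 0.090). Adamts18 had 124, 43.0 and 90.4 CPM in muscle and 13.2, 12.2 and 6.46 CPM in epithelium (3.01 ± 0.44, edgeR adjusted p = 0.0030). Muscle replicate 2 was the lowest muscle library for Adamts7 and for Adamts18, as it was for 11 of the 18 genes. Adamts17 had 30.2, 36.5 and 60.1 CPM in muscle and 9.81, 11.7 and 9.31 CPM in epithelium (2.04 ± 0.31, edgeR adjusted p = 0.0037).

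Adamts10, which binds fibrillin microfibrils, was measured at a high level in both populations. It had 186, 168 and 186 CPM in muscle and 123, 87.8 and 88.9 CPM in epithelium, without overlap (0.85 ± 0.24, edgeR adjusted p = 0.053). It passed the threshold in 9 of 18 alternative fits. Its relative Adamts6, named after its values were seen, averaged 23.4 ± 6.55 CPM in muscle (SD, n = 3) and 14.4 ± 4.78 in epithelium (0.70 ± 0.33, edgeR adjusted p = 0.28).

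ADAMTS-like proteins share the non-catalytic domains of the ADAMTS family, lack the protease domain and bind to microfibrils. Adamtsl2, a gene of the human disorder geleophysic dysplasia, had 32.8, 17.3 and 43.7 CPM in muscle and 2.62, 1.87 and 2.52 CPM in epithelium. It was 13.3-fold higher in muscle, a log2 fold change of 3.73 ± 0.42 (edgeR adjusted p = 0.00093). The epithelial libraries were alike, at 5.98% to 8.38% of the muscle mean, with epithelium replicate 2 the lowest. Adamtsl4 had 7.68, 14.9 and 12.3 CPM in muscle and 1.23, 7.28 and 3.53 CPM in epithelium (1.54 ± 0.68, edgeR adjusted p = 0.23). Of the remaining 3, named after their values were seen, Adamtsl1 averaged 42.5 ± 12.2 CPM in muscle (SD, n = 3) and 47.8 ± 1.91 in epithelium (-0.17 ± 0.26, adjusted p = 0.89). Adamtsl3 (1.35 ± 0.73, adjusted p = 0.36) and Adamtsl5 (1.78 ± 0.62, adjusted p = 0.12) also did not pass edgeR's test.

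All 4 TIMP genes had every muscle library above every epithelial library, and Timp1 and Timp2 passed the test. Timp1 (chrX:20870166-20874735) had 23.3, 25.3 and 32.8 CPM in muscle and 2.75, 4.75 and 3.31 CPM in epithelium. The difference was 7.58-fold, with a log2 fold change of 2.92 ± 0.35 (edgeR adjusted p = 0.0011). Timp2, which inhibits MMPs and also takes part in the activation of pro-MMP2 by MMP14, had 88.6, 75.1 and 149 CPM in muscle and 35.8, 50.9 and 29.4 CPM in epithelium (1.43 ± 0.33, edgeR adjusted p = 0.025). Its call was lost without muscle replicate 3, epithelium replicate 1 or epithelium replicate 3 (up to 0.13).

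Timp3, which stays bound to the matrix and inhibits several ADAMs and ADAMTSs as well as MMPs, was the TIMP of highest per-kilobase level in both populations, at 67.2 ± 32.8 CPM per kb (SD, n = 3) in muscle and 24.1 ± 4.85 in epithelium. In CPM it had 707, 239 and 696 in muscle and 230, 153 and 206 in epithelium. Muscle replicate 2 lay just above the highest epithelial library. The log2 fold change of 1.48 ± 0.41 missed the threshold (edgeR adjusted p = 0.052) and passed it in 10 of 18 alternative fits, among them the one without muscle replicate 2 (adjusted p = 0.0017). Timp3 overlaps Syn3 on the opposite strand, with 21.3% of its exonic bases shared in GENCODE M21, so its counts carry that uncertainty. Timp4 had 5.09, 42.9 and 22.3 CPM in muscle and 0.037, 3.68 and 4.24 CPM in epithelium, with 2 counts in epithelium replicate 1 (3.16 ± 1.24, edgeR adjusted p = 0.17). Its muscle libraries differed by more than 8 times.

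**Figure D4:**
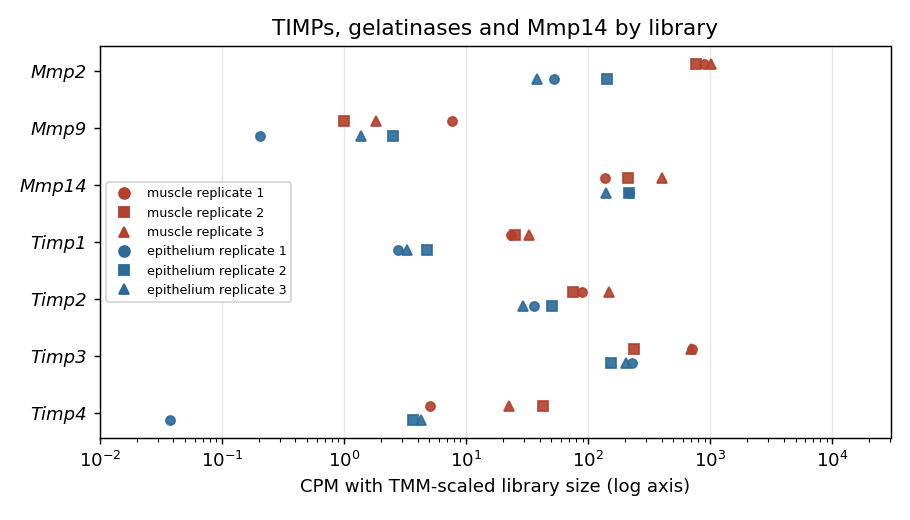
Level of the 4 TIMP genes, both gelatinases and Mmp14 in each library, as CPM on a log axis (x axis), with genes on the y axis; red is muscle, blue is epithelium and the symbol gives the replicate. Red and blue separate for Mmp2 and the 4 TIMP genes, and overlap for Mmp9 and Mmp14.

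Summed per kilobase of exon, TIMP genes reached 137, 84.4 and 164 CPM per kb in muscle (replicates 1 to 3) against 40.6, 37.8 and 37.3 in epithelium. MMP genes reached 427, 405 and 517 in muscle and 217, 175 and 169 in epithelium, and ADAMTS genes 298, 234 and 316 against 51.9, 73.5 and 47.5. ADAM genes had the closest sums, at 116, 83.8 and 99.5 in muscle and 63.1, 85.7 and 79.6 in epithelium, and overlapped between groups. The 21 reproductive ADAM genes gave 2.73, 13.5 and 1.28 of this in muscle and 1.45, 19.2 and 11.9 in epithelium. Their mean per gene was highest in the same 3 libraries as that of the receptor genes. The 9 ADAMs with a working protease in many tissues gave 99.4, 62.2 and 87.9 in muscle and 51.7, 61.0 and 60.4 in epithelium, without overlap. All these sums are descriptions. Those of the TIMP, MMP and ADAMTS genes are dominated by the few genes of high level named above.

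Genes that act with these proteases were taken from lists of activators and cofactors, the plasminogen system, procollagen processing, matrix substrates and shed proteins. Of 19 activators and cofactors, 2 (10.5%) were higher in muscle, beside 6.58% of all tested genes, and 17 did not pass (median log2 fold change -0.43). The groups did not overlap in 9 of the 19, with muscle above in 4 and epithelium above in 5. Among all tested genes, muscle lay above in 16.4% and epithelium in 10.5%. Reck, a membrane-anchored inhibitor of MMPs, had 77.9, 57.5 and 133 CPM in muscle and 24.7, 30.4 and 17.4 CPM in epithelium (1.89 ± 0.36, edgeR adjusted p = 0.010). Its call was lost without epithelium replicate 3 (adjusted p = 0.051). Sfrp1, a secreted Wnt inhibitor that can also bind ADAM10, was the other gene of the list called toward muscle (3.04, edgeR adjusted p = 0.00080).

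The plasminogen system is a serine protease cascade that activates MMPs. Of 9 genes listed for it, 3 (33.3%, beside 6.58% of all tested genes) were higher in muscle and 6 did not pass (median 0.61). They were the plasminogen activator Plat (2.28 ± 0.26, edgeR adjusted p = 0.0010), the urokinase receptor Plaur (2.32 ± 0.48, adjusted p = 0.016) and the inhibitor Serpine2 (2.55 ± 0.38, adjusted p = 0.0033). An activator and an inhibitor of the cascade were thus both higher in muscle. Plat had 236, 176 and 239 CPM in muscle and 51.6, 46.9 and 35.6 CPM in epithelium. Plaur lost its call without muscle replicate 1, muscle replicate 3 or epithelium replicate 3 (adjusted p of up to 0.0996). Of 7 astacin proteases and procollagen processing genes, Bmp1, the procollagen C-proteinase, and its enhancer Pcolce were higher in muscle. They were 28.6% of the list, beside 6.58% of all tested genes, and the median over the list was 0.36. Bmp1 had 151, 121 and 209 CPM in muscle and 30.4, 42.2 and 21.7 CPM in epithelium (2.35 ± 0.33, edgeR adjusted p = 0.0025). Pcolce had a log2 fold change of 4.15 ± 0.39 (edgeR adjusted p = 0.00045).

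Of 11 matrix substrates of ADAMTS proteases, 6 (Vcan, Fbn1, Fbn2, Col1a1, Col1a2 and Col3a1) were higher in muscle and 5 did not pass (median 1.33). The 6 were 54.5% of the list, beside 6.58% of all tested genes. The largest log2 fold changes were those of Col3a1 (3.61, edgeR adjusted p = 0.019), Col1a2 (3.44, adjusted p = 0.022) and Col1a1 (3.28, adjusted p = 0.036). Each of the 3 collagen calls was lost without any single muscle library. The calls of Col1a1 and Col1a2 were also lost without epithelium replicate 1, and that of Col1a1 without epithelium replicate 3 (adjusted p of up to 0.068 for Col3a1, 0.082 for Col1a2 and 0.13 for Col1a1). Of 20 shed ligands and receptors, muscle was higher for 3 (15%) and epithelium for 3 (15%), beside 6.58% and 4.11% of all tested genes (median -0.18). Toward muscle these were the Notch ligand Jag1 (3.05, edgeR adjusted p = 0.0013), the hyaluronan receptor Cd44 (2.14, adjusted p = 0.020) and Notch1 (1.31, adjusted p = 0.032). Cd44 lost its call without epithelium replicate 3 (adjusted p = 0.088) and Notch1 without muscle replicate 3, epithelium replicate 1 or epithelium replicate 3 (adjusted p of up to 0.17). Toward epithelium they were the chemokine Cxcl16 (-2.91, edgeR adjusted p = 0.0015) and the cell adhesion genes Epcam and Cdh1, which are also epithelial markers and, for Epcam, the protein used for sorting.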

How the data were processed

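RNA from 3 muscle and 3 epithelial libraries was counted per gene. The authors deposited whole-number counts per gene symbol. Per the labels' protocols, libraries were made with SMART-Seq v4 and Nextera XT, and per the submitters' processing notes Trim Galore, Bowtie2, Cufflinks, DESeq and mm10 were used, without versions or roles. The counting program and the annotation are not given in the sources used here. Between 73.8% and 79.6% of counts from 1 to 19 were even per library, so counts may include both mates of a pair. Strand use is not stated, so overlapping genes cannot be separated.

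Low counts were removed by filterByExpr, and the rest was scaled by TMM and tested in R 4.3.3 with edgeR 4.0.16 (robust quasi-likelihood, two-sided, Benjamini-Hochberg over all tested genes, threshold 0.05). Standard errors derive from the test statistic. Limma 3.58.1 and DESeq2 1.42.0 gave alternatives. The fit was tested on simulated counts, drawn independently around 1 mean per gene. The changed genes were drawn only from those with a mean above 10 CPM of the library total. Among these, the fit recovered 84.4% of genes changed by 2 on the log2 scale and 91.2% of those changed by 3. Recovery at lower levels was not tested. It called 10 of 19175 unchanged genes. The simulation did not include the receptor counts shared by some libraries, so it does not cover them. Exact permutation of 3 against 3 libraries cannot go below p = 0.10. Floors (3 counts) cover counting error only. Exon lengths and positions are from GENCODE M21. Motifs were searched on both strands; the GC, TATA, AP-1 and CArG matches may overlap.

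Genes were chosen by symbol, roles and lists from textbook knowledge, all with earlier results of these data known. Named were all called genes of the group, 9 set genes (Timp1 to Timp4, Mmp2, Mmp9, Mmp14, Adam10, Adam17), uncalled genes without overlap whose average log2 CPM reached 2, and up to 3 called genes per direction in each other list.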

Additional observations from a re-analysis of the deposited data

How the results depend on the processing

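The 18 genes of the group higher in muscle kept their direction in all 18 alternative fits, and 7 of them stayed past the threshold in all. Every muscle library lay above every epithelial one in these 18 genes, so the kept direction adds little. The count of genes higher in muscle was 11 with library size only, 8 at an adjusted p under 0.01 and between 9 and 19 without 1 library. With the replicate number as a block (replicate block) it was 17, of which 13 were among the 18: Adam9, Adamts4, Adamts5, Mmp16 and Timp2 lost their call. The numbers were not taken to pair the libraries. Deviations from the group means correlated at 0.539, 0.631 and -0.345 for numbers 1 to 3, muscle replicate 3 correlated best with epithelium replicate 1, and the file's identifiers match for numbers 1 and 2 only. The count higher in epithelium was 1 (Adam28) with DESeq2, limma-voom, a term for the number in the file's identifiers that was read as a date, which the file does not state (both replicates 2 share 1 number and the rest another), a fit of only the 4 libraries numbered 1 or 3 and, chosen after seeing the data, the 3 libraries with few receptor counts, of which 1 is epithelial. It was between 0 and 1 without 1 library. The number of all genes called was 2071, 3539 with DESeq2, 3178 with the term for that number, 983 at an adjusted p under 0.01 and between 1169 and 2573 without 1 library. With a covariate for receptor counts, also chosen after seeing the data, 25 genes of the group were higher in muscle, 16 of them among the 18. Log2 fold changes near 0 changed sign. Adam10 was at 0.011 without a low-count filter, 0.12 in the 4 libraries and 0.10 in the 3 libraries with few receptor counts, and Adam17 at 0.012 and 0.12 in those 2 subsets. Without 1 library, Adam10 ranged from -0.18 to 0.19, Adam17 from -0.33 to 0.16, Mmp11 from -0.35 to 0.24, Adamtsl1 from -0.33 to 0.055 and Mmp14 from -0.10 to 0.72. Depth limits a gene without counts to levels under 0.0558 to 0.2 CPM (3 counts), and the deepest library, epithelium replicate 1, had counts for the fewest genes of the group (59).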
